A study of Homo sapiens with 24 samples.

Results

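The 38 genes described here encode proteins of the lysosome and of autophagy, together with TFEB, the transcription factor best known for switching such genes on. The genes were chosen with earlier results of these data known. Their probes were taken by name alone: every non-control probe whose gene name in the array files is one of the 38 symbols. These probes number 50 of 34127 on the array, and the 38 genes stand among 27274 gene names. All 50 probes passed the filter on dim probes, which kept 18983 probes for 15154 genes in all. By role, the 38 genes are 6 membrane proteins and channels, 6 proteases, 11 glycosidases and glycosaminoglycan enzymes, 6 sphingolipid and lipid enzymes, 8 autophagy genes and TFEB. The first group also holds NPC2, which is a soluble protein.

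The lysosome is the acidic compartment in which cells break down proteins, sugars, lipids and worn-out organelles. Its hydrolases are made in the endoplasmic reticulum, tagged with mannose 6-phosphate and delivered through the Golgi, while its membrane carries heavily glycosylated proteins, a proton pump and ion channels. In autophagy, a double membrane labelled with LC3-family proteins closes around cargo and fuses with the lysosome. TFEB and its relatives bind a palindromic element built around the E-box CACGTG, known as the CLEAR element, and are held in the cytoplasm by mTORC1 while nutrients are plentiful. Butyrate, a fermentation product of dietary fibre, inhibits histone deacetylases and alters the expression of many genes in colonic cells.

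Expression was measured on single-colour Agilent arrays in HCT-116, a human colorectal carcinoma line with active Wnt signaling. All cells came from a stably transfected clone that carries doxycycline-inducible DN-Tcf4, a truncated Tcf4 that cannot bind beta-catenin, so every group shares the selection with zeocin and blasticidin and the results stand for a single clone. The groups were untreated cells (Ctl), cells given 5 mM sodium butyrate (NaB), cells given 4 µg/ml doxycycline (Doxy) and cells given both agents (DoxyNaB). The labels give 17.5 hr for the treatment, and the methods word it as doxycycline followed by cotreatment with butyrate for that time. Each of 6 experiments gave 1 array per group, 24 arrays in all. NaB/Ctl and DoxyNaB/Doxy ask what butyrate does without and with doxycycline, Doxy/Ctl and DoxyNaB/NaB ask what doxycycline does without and with butyrate, and the interaction asks whether the butyrate response differs with doxycycline.

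Promoters are shown for 6 of the 38 genes, because the element bound by TFEB can be read in them directly and because their transcripts behaved differently. The windows are RefSeq's, on GRCh38.p14, and were available for 29 of the 38 genes. RefSeq has 2 overlapping windows for CLN3, which hold the element equally often, and the one with the lower start coordinate is shown. Each line gives 250 bases before the gene's start and 20 after it, 5′ to 3′ on the gene's own strand, with every CACGTG in capitals. NEU1 lies on the minus strand (chr6:31862802-31863071), MCOLN1 on the plus strand (chr19:7522374-7522643), GAA on the plus strand (chr17:80101331-80101600), LAMP1 on the plus strand (chr13:113296989-113297258), CLN3 on the minus strand (chr16:28492055-28492324) and SMPD1 on the plus strand (chr11:6390224-6390493).
NEU1: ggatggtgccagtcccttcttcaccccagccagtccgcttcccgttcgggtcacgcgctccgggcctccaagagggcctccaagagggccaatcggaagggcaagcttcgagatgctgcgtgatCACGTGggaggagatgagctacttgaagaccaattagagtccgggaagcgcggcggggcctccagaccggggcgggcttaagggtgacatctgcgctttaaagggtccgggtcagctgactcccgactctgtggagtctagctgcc
MCOLN1: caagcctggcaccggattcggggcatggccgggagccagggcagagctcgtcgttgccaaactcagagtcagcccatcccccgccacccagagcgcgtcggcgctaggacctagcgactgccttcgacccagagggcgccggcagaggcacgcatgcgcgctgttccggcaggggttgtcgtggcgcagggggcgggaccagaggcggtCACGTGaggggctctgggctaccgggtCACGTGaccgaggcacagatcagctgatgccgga
GAA: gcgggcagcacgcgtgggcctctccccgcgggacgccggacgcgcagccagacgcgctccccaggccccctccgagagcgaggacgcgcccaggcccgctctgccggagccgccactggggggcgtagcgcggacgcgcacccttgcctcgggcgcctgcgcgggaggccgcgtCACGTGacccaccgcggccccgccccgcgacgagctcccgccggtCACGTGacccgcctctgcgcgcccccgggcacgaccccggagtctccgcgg
LAMP1: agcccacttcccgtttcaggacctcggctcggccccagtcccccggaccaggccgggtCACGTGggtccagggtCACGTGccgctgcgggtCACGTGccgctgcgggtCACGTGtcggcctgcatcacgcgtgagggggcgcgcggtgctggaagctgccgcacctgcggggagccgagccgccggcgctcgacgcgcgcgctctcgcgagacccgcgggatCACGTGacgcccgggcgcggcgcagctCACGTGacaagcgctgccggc
CLN3: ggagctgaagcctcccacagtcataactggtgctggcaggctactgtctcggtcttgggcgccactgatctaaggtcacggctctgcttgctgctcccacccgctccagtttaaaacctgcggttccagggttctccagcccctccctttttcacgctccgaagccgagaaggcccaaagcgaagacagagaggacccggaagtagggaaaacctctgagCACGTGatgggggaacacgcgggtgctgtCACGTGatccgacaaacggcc
SMPD1: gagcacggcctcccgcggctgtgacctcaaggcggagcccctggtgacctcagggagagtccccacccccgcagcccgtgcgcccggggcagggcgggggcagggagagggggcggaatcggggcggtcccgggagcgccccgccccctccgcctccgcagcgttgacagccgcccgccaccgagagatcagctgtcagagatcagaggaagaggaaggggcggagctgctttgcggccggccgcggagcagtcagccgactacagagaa

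The letters CACGTG, which read the same on both strands, stood in a 300-base window of 9 of the 29 genes. These were ARSB, CD63, CLN3, CTSA, CTSD, GAA, LAMP1, MCOLN1 and NEU1. That is 31.0% of them, against 8.77% of the 27305 genes with a window. The longer TCACGTGA, which contains it and is palindromic too, was found in 5 of the 29 (CLN3, CTSA, GAA, LAMP1 and MCOLN1; 17.2%, against 1.18% of all genes). Among the windows shown, LAMP1 held 6 copies of CACGTG, MCOLN1, GAA and CLN3 held 2 each, NEU1 held 1, and SMPD1 had no match. A match to these letters is a description of the sequence and not a mapped binding site. Among the 29, genes with several RefSeq windows were counted if any window matched. For ARSB and CD63, other windows of the same gene held no CACGTG.

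Levels below are on a log2 scale on which 0 is the brightness of the spot at the 75th percentile of its own array. Levels of different probes depend on the probe and were not compared with each other. Depending on the array, 52.5% to 88.1% of spots stood well above background, and no probe of the 38 genes was saturated. The experiment was used as a block, and a change was called at an adjusted p under 0.01 and a fold over 2. The epithelial markers EPCAM, KRT8, KRT18, KRT19 and CDH1 were well above background on all 24 arrays, and VIL1 on 5. Of the markers of other cell types, COL3A1 passed on 0 arrays, while CD14 passed on 23, CDH5 on 22, and CD68 and COL1A1 on 24. In NaB/Ctl, EPCAM fell (log2 change -1.45), KRT19 (0.97), CDH1 (0.99) and both KRT8 probes (0.63 and 1.24) rose, and the KRT18 probes did not pass the test (0.10 and 0.12). CD14 (1.35), COL1A1 (1.09) and CD68 (0.44) rose as well, CDH5 did not pass (0.45), and the part of these changes in the results below was not tested. A change in RNA per cell and a change in the make-up of a culture cannot be told apart in such extracts. Of the 3 probes of TCF7L2, the gene of Tcf4, the one well above background on all 24 arrays was 2.96 higher in DoxyNaB/NaB (adjusted p = 3.65e-05) and changed by -0.17 in Doxy/Ctl (adjusted p = 0.921). Another passed the background test on 6 of 6 DoxyNaB arrays but only on 3 of 6 NaB, 3 of 6 Doxy and 1 of 6 Ctl arrays, so it gives no exact difference, and the last fell by 1.25 in DoxyNaB/NaB. AXIN2, a Wnt target, fell by 2.53 on the log2 scale in DoxyNaB/NaB and by 0.58 in Doxy/Ctl.

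With arrays scaled to their 75th percentile, butyrate raised more of the lysosome and autophagy genes than it lowered, and this balance depended on the scaling. In NaB/Ctl, 15 of 38 genes were called changed, against 32.4% of all genes tested. Of these, 14 were higher (background 21.0%) and 1, PPT1, was lower (background 11.5%). Without the fold threshold, 23 of 38 genes were higher at an adjusted p under 0.01 (background 40.6%) and 7 were lower (background 29.0%). The median change of the 38 genes was 0.54 on the log2 scale, against 0.17 over all 15154 genes. All 6 NaB arrays lay above all 6 Ctl arrays for 20 of the 38 genes (background 25.4%) and below them for 4 (CD63, CLN3, HEXA and PPT1; background 20%). Setting a floor of 5 signal units and then scaling each array to its median spot, 2 changes made together and named scaling to the median below, shifted the median of all probes from 0.17 to -0.58. It left 7 of the 38 genes called higher and 6 called lower, where over all 18983 probes 1643 were called higher and 6129 lower. NaB/Ctl calls with scaling to the median are to be read against these, here and below. The counts without a fold threshold turned to 9 higher and 12 lower. The share over all genes with this scaling and no fold threshold is not given, so such counts have no background here or below. The median change of the 38 genes turned to -0.21, which was still above that of all probes.

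With doxycycline present, the response was close to the same. DoxyNaB/Doxy called the same 15 genes in the same directions, against 31.2% of all genes tested (18.7% higher, 12.5% lower), and 15 of 15 calls were shared where 85.1% of the NaB/Ctl calls of all genes were. At an adjusted p under 0.01 without the fold threshold, the same 23 genes were higher (background 38.1%) and 6 were lower (background 30.3%), CTSA being the gene no longer past the test (log2 change -0.06, or 0.08 under quantile normalization). The median change was 0.70, against 0.11 over all genes. All DoxyNaB arrays lay above all Doxy arrays for 18 genes (background 22.5%) and below them for 4 (CD63, CLN3, CTSZ and PPT1; background 20.9%). Scaling to the median left 7 genes called higher and 5 called lower here, where over all 18983 probes 1751 were called higher and 5250 lower. Without a fold threshold there were 12 higher and 9 lower, again with no share over all genes to set beside them. The median was 0.14, against -0.46 over all probes.

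The balance held in each experiment on its own. The median NaB/Ctl difference over the 38 genes lay between 0.44 and 0.62 in the 6 experiments, while that over all genes lay between 0.12 and 0.23, and 25 to 28 of the 38 genes were higher in each. In DoxyNaB/Doxy the median lay between 0.33 and 0.80, and 25 to 30 genes were higher. Individual genes were steady for the most part, with an SD of the 6 paired NaB/Ctl differences of 0.18 at the median of the 38 genes. ARSB, the sulfatase that removes sulfate from dermatan and chondroitin, was the exception at an SD of 1.10. Its probe was well above background on 22 of the 24 arrays, and its 6 differences ran from -1.75 to 1.21. They were positive in experiments 2 to 4, which shared a scan date, and negative in the others. The negative control spots averaged 112 to 161 signal units on the NaB arrays of experiments 2 to 4, against 49 to 64 on the other NaB arrays. The part of background in the ARSB values was not tested.

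**Figure D1:**
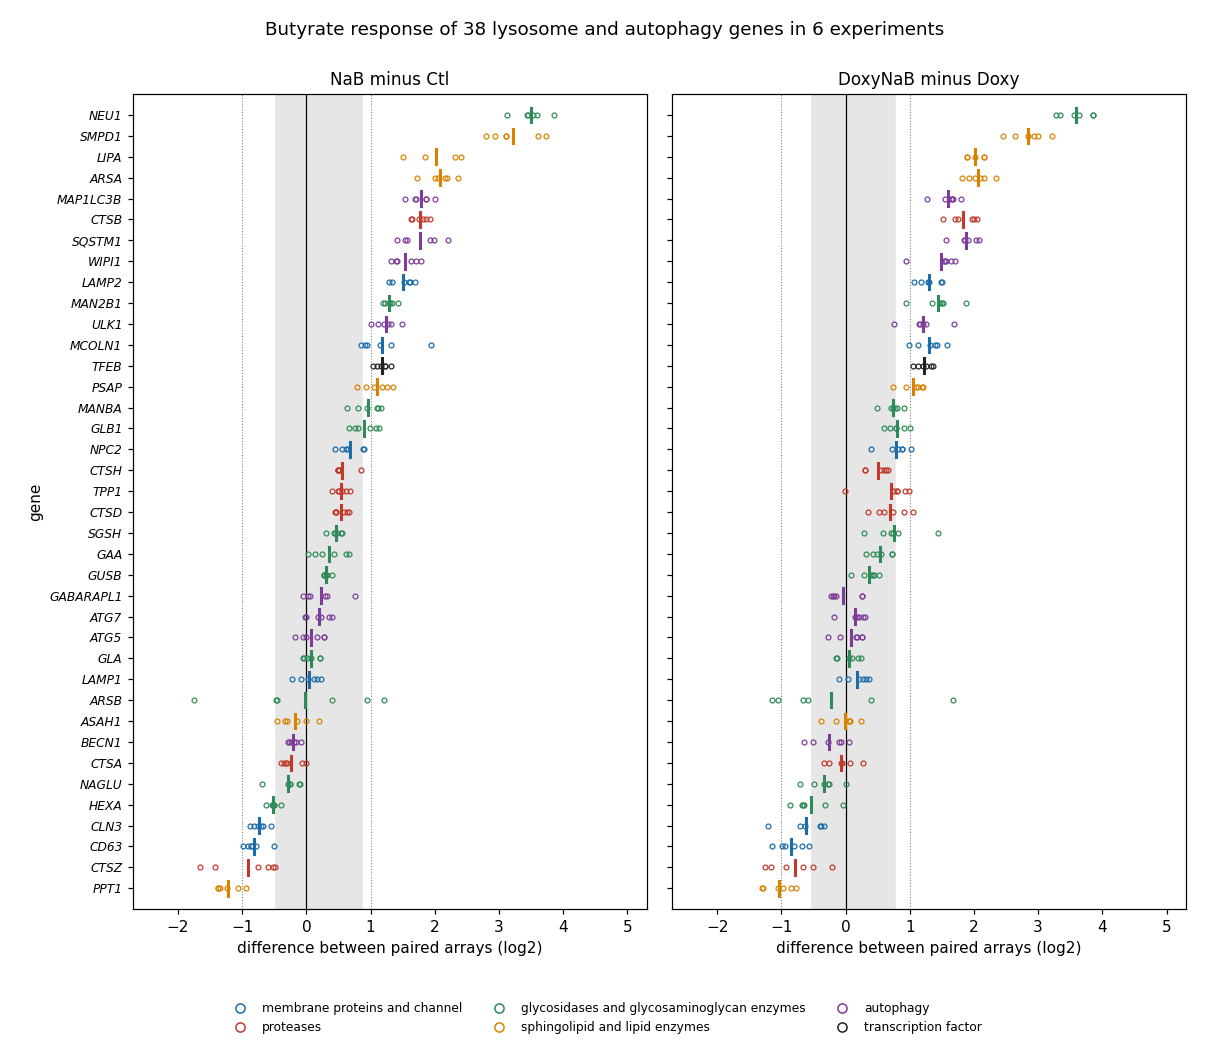
Paired differences (log2) for each of the 38 genes in NaB minus Ctl (left) and DoxyNaB minus Doxy (right). Open circles are the 6 experiments, coloured by role, bars are their means, the dotted lines mark a 2-fold change, and the grey band spans the middle quartiles of all 15154 genes; NEU1 and SMPD1 lie farthest to the right in both panels and PPT1 farthest to the left.

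TFEB itself rose with butyrate. Its brighter probe (chr6:41759696-41759755 on NCBI36, minus strand) ran from -1.30 to -0.81 on the Ctl arrays (median -1.13) and from -0.27 to 0.50 on the NaB arrays (median 0.04). With doxycycline it ran from -1.53 to -0.93 (Doxy, median -1.31) and from -0.34 to 0.44 (DoxyNaB, median -0.17). Neither pair of groups overlapped. The change was 2.26-fold in NaB/Ctl (log2 change 1.18 ± 0.10, the SD of the 6 paired differences, as for all such values here; adjusted p = 3.74e-12) and 2.33-fold in DoxyNaB/Doxy (1.22 ± 0.12; adjusted p = 2.19e-12). The second TFEB probe rose by less and was not called, at 0.82 (adjusted p = 0.000904) and 0.55 (adjusted p = 0.0161). With normexp background correction the first probe also stayed under 2-fold, at 0.79 and 0.91, and with scaling to the median it stood at 0.43 and 0.66.

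**Figure D2:**
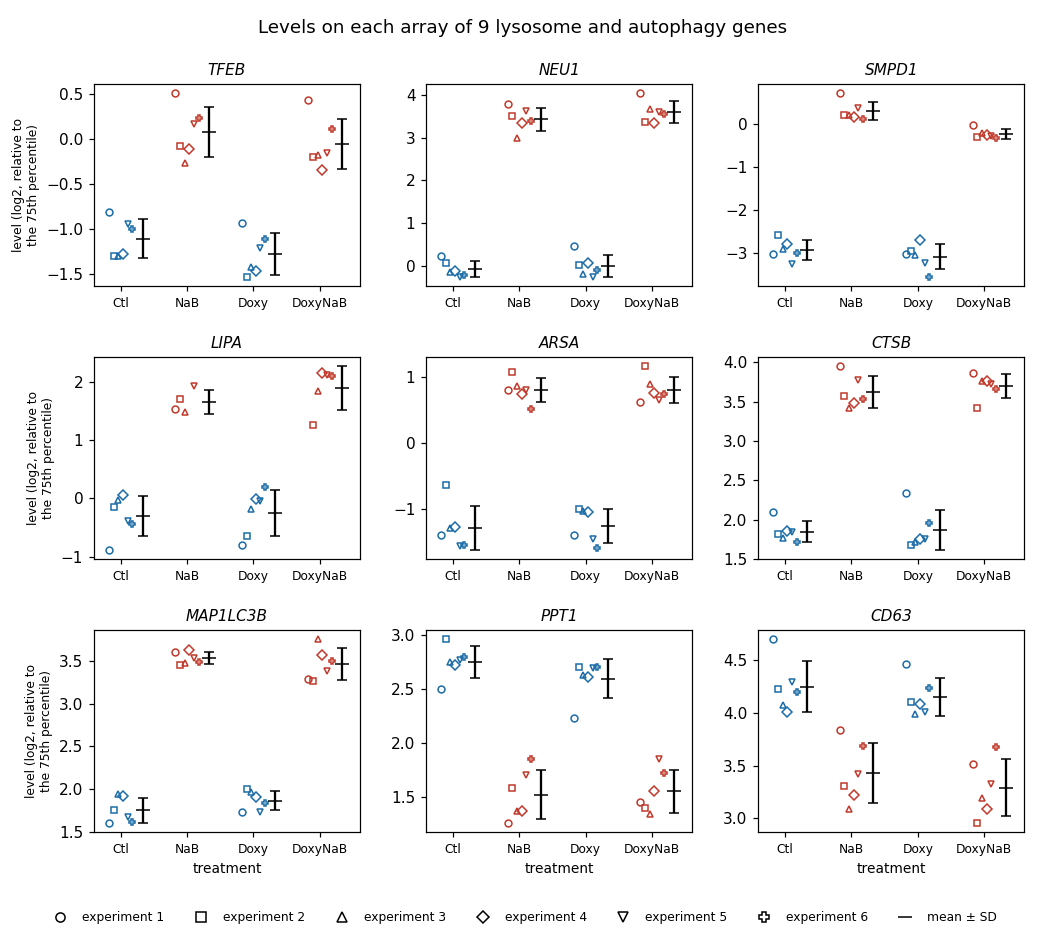
Levels (log2, with 0 at the 75th percentile of each array) of 9 of the 38 genes on each array, by treatment. Each marker shape is an experiment, red marks the butyrate groups, and the black bars are mean ± SD; for all 9 genes the butyrate arrays stand apart from the arrays without butyrate, above them for 7 and below them for PPT1 and CD63.

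Among the glycosidases and glycosaminoglycan enzymes, NEU1 stood far above the rest. NEU1, the lysosomal sialidase that removes sialic acid from glycoproteins and glycolipids, ran from -0.25 to 0.25 on the Ctl arrays (median -0.13) and from 2.99 to 3.77 on the NaB arrays (median 3.45). With doxycycline it ran from -0.25 to 0.48 (median -0.03) and, after butyrate, from 3.35 to 4.03 (median 3.58). The butyrate arrays were separated from the others by more than 2 log2 units. The change was 11.3-fold in NaB/Ctl (3.50 ± 0.24; adjusted p = 2.69e-15) and 12-fold in DoxyNaB/Doxy (3.59 ± 0.24; adjusted p = 1.79e-15), the highest of the 38 genes in both. Its probe lies at chr6:31935125-31935184 on NCBI36, minus strand, and its promoter is the first shown above.

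MAN2B1, the lysosomal alpha-mannosidase, was the other gene of the group called higher, with Ctl arrays from -0.45 to -0.09 and NaB arrays from 0.84 to 1.13. The groups did not overlap, and the change was 2.45-fold in NaB/Ctl (1.29 ± 0.08; adjusted p = 1.02e-10) and 2.71-fold in DoxyNaB/Doxy. MANBA, the beta-mannosidase, and GLB1, the beta-galactosidase often used as a marker of senescent cells, rose by 1.95-fold and 1.87-fold in NaB/Ctl, under the fold threshold. Smaller rises were seen for SGSH (0.46), a heparan sulfate sulfamidase, GAA (0.35), which degrades lysosomal glycogen, and GUSB (0.31), the beta-glucuronidase, but all 3 changed sign with scaling to the median. GLA, the alpha-galactosidase, did not pass the test.

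HEXA and NAGLU were the genes of this group that fell. HEXA, the alpha subunit of beta-hexosaminidase, ran from 0.14 to 0.48 on the Ctl arrays (median 0.22) and from -0.37 to -0.15 on the NaB arrays (median -0.26). On the Doxy arrays it ran from 0.20 to 0.75 (median 0.38) and on the DoxyNaB arrays from -0.33 to 0.43 (median -0.19). Ctl and NaB did not overlap, whereas Doxy and DoxyNaB did. The change was -0.52 ± 0.08 (adjusted p = 2.48e-05) and -0.53 ± 0.30 (adjusted p = 1.83e-05). NAGLU, which acts on heparan sulfate, ran from -0.91 to 0.02 on the Ctl arrays (median -0.78), from -1.12 to -0.68 on NaB (median -0.96), from -0.82 to 0.02 on Doxy (median -0.65) and from -1.08 to -0.70 on DoxyNaB (median -0.94). Its groups overlapped, although it was lower in 6 of 6 experiments in NaB/Ctl (-0.28 ± 0.22; adjusted p = 0.00444) and lower by 0.34 ± 0.24 in DoxyNaB/Doxy (adjusted p = 0.00104).

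The sphingolipid and lipid enzymes had 5 of 6 genes called (background 32.4%), the largest share among groups of several genes, and the highest median change among them, 1.59 in NaB/Ctl and 1.54 in DoxyNaB/Doxy. Scaling to the median left 4 called and a median of 0.82 in NaB/Ctl. SMPD1, the acid sphingomyelinase that splits sphingomyelin into ceramide and phosphocholine, ran from -3.25 to -2.58 on the Ctl arrays (median -2.94) and from 0.12 to 0.71 on the NaB arrays (median 0.21). With doxycycline it ran from -3.55 to -2.7 (median -3.03) and, after butyrate, from -0.34 to -0.02 (median -0.26). All butyrate arrays lay above all others. The change was 9.30-fold in NaB/Ctl (3.22 ± 0.37; adjusted p = 4.7e-14) and 7.18-fold in DoxyNaB/Doxy (2.84 ± 0.27; adjusted p = 1.93e-13). The probe lies at chr11:6372012-6372071 on NCBI36, plus strand.

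LIPA, the acid lipase that frees cholesterol and fatty acids from lipoprotein lipids, ran from -0.88 to 0.06 on the Ctl arrays (median -0.27) and from 1.48 to 1.93 on the 4 NaB arrays without an outlier flag (median 1.61). On the Doxy arrays it ran from -0.80 to 0.20 (median -0.11) and on the 5 DoxyNaB arrays kept from 1.26 to 2.14 (median 2.10). The groups did not overlap. The fit, with the flagged spots left out, gave a change of 4.26-fold (2.09, SE 0.16; adjusted p = 1.1e-08) and 4.12-fold (2.04, SE 0.17; adjusted p = 3.35e-08). The methods' t-test used only the 3 experiments in which LIPA was kept on the arrays of all 4 groups, and gave a NaB/Ctl change of 1.89. That change was past the threshold neither before nor after adjustment (adjusted p = 0.0232, paired t-test with Benjamini-Hochberg adjustment). This t-test was not run on all 4 complete NaB/Ctl pairs.

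ARSA, the sulfatase that breaks down sulfatide, ran from -1.56 to -0.64 on Ctl (median -1.33), from 0.52 to 1.08 on NaB (median 0.81), from -1.59 to -0.99 on Doxy (median -1.22) and from 0.63 to 1.17 on DoxyNaB (median 0.76). Butyrate arrays lay above all others. The change was 4.23-fold in NaB/Ctl (2.08 ± 0.22; adjusted p = 1.55e-13) and 4.16-fold in DoxyNaB/Doxy (2.06 ± 0.19; adjusted p = 1.73e-13). PSAP, the precursor of the saposins that present sphingolipids to these enzymes, rose 2.13-fold and 2.07-fold on its brighter probe, and its second probe rose by 1.04 and 1.05 on the log2 scale. ASAH1, the acid ceramidase that degrades the product of SMPD1, did not pass the test in either comparison.

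PPT1, the thioesterase that removes fatty acids from palmitoylated proteins, went the other way and was the 1 gene called lower. It ran from 2.49 to 2.96 on the Ctl arrays (median 2.76) and from 1.26 to 1.85 on the NaB arrays (median 1.48). With doxycycline it ran from 2.23 to 2.7 (median 2.66) and, after butyrate, from 1.34 to 1.85 (median 1.5). No arrays overlapped between the groups compared. Its level fell by 1.23 ± 0.18 on the log2 scale in NaB/Ctl, 2.34-fold (adjusted p = 1.19e-10), and by 1.04 ± 0.22 in DoxyNaB/Doxy, 2.06-fold (adjusted p = 1.16e-09). The second change lies at the fold threshold: without experiment 2 or without experiment 3 it was -0.99, with quantile normalization -0.92 and in experiments 5 and 6 alone -0.91, all under 2-fold. The second PPT1 probe fell by 1.21 and 1.11. The probe of these values lies at chr1:40311112-40311171 on NCBI36, minus strand.

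Of the 6 proteases, 4 were higher (background 40.6%) and 2 lower (background 29.0%) in NaB/Ctl at an adjusted p under 0.01. Scaling to the median left 1 higher and 2 lower, with no share over all genes to set beside them. CTSB, the cysteine protease cathepsin B, ran from 1.72 to 2.09 on Ctl (median 1.83), from 3.42 to 3.95 on NaB (median 3.55), from 1.68 to 2.34 on Doxy (median 1.75) and from 3.42 to 3.86 on DoxyNaB (median 3.74). The butyrate arrays lay above all others. It was the only protease called, at 3.42-fold in NaB/Ctl (1.77 ± 0.12; adjusted p = 4.66e-13) and 3.56-fold in DoxyNaB/Doxy (1.83 ± 0.21; adjusted p = 2.83e-13). The aspartic protease CTSD (0.54), the aminopeptidase CTSH (0.56) and the tripeptidyl peptidase TPP1 (0.54) rose by similar amounts, all turning negative in NaB/Ctl with scaling to the median. CTSA, the carboxypeptidase that also protects NEU1 and GLB1 in a complex, fell by 0.24 in NaB/Ctl (adjusted p = 0.0083).

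CTSZ, a carboxypeptidase of the cathepsin family, fell. It ran from -1.15 to 0.43 on Ctl (median -0.64), from -1.91 to -1.13 on NaB (median -1.28), from -0.74 to -0.60 on Doxy (median -0.64) and from -1.91 to -0.88 on DoxyNaB (median -1.44). Ctl and NaB overlapped by a narrow margin and Doxy and DoxyNaB did not. The change was -0.91 ± 0.50 in NaB/Ctl (adjusted p = 8.5e-05) and -0.79 ± 0.40 in DoxyNaB/Doxy (adjusted p = 0.000345). A second, dimmer probe fell by 1.88 and 2.40 but passed the background test on 14 of 24 arrays, 2 of them NaB arrays.

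The 6 genes grouped as membrane proteins and channels were mixed, with 3 higher and 2 lower in NaB/Ctl at an adjusted p under 0.01. These counts were near the shares over all genes (40.6% and 29.0%). Scaling to the median gave 1 higher and 3 lower, for which no such share is given. LAMP2, a major glycoprotein of the lysosomal membrane and the receptor of chaperone-mediated autophagy in its A form, had 3 probes, each named in the files for a transcript variant. The variant C probe, the brightest, ran from 0.57 to 0.96 on the Ctl arrays and from 2.09 to 2.49 on the NaB arrays, and rose 2.84-fold (1.51 ± 0.17; adjusted p = 1.06e-11). The variant B probe rose by 1.09 and the variant A probe by 2.18, the latter bright enough on only 3 of the 6 Ctl arrays. Its partner LAMP1 moved little, with a change of 0.04 in NaB/Ctl and 0.18 in DoxyNaB/Doxy, neither past the test, and its sign turned under at least 1 alternative processing in both. MCOLN1, the calcium channel TRPML1, ran from -1.75 to -0.39 on Ctl and from 0.18 to 0.45 on NaB, and rose 2.27-fold (1.18 ± 0.41; adjusted p = 9.14e-08) and 2.47-fold (1.31 ± 0.22). Its NaB/Ctl change was 0.90 under normexp, below the fold threshold, and 0.43 with scaling to the median, where the adjusted p of 0.0907 was not past the test either. NPC2, the soluble protein of the group, which hands cholesterol to the membrane, rose by 0.67 and changed sign in NaB/Ctl with scaling to the median.

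CD63 and CLN3 fell. CD63, a tetraspanin of lysosomes and exosomes, ran from 4.01 to 4.69 on Ctl (median 4.21), from 3.09 to 3.84 on NaB (median 3.36), from 3.99 to 4.46 on Doxy (median 4.09) and from 2.96 to 3.67 on DoxyNaB (median 3.26). The groups compared did not overlap. The change was -0.82 ± 0.17 in NaB/Ctl (adjusted p = 4.43e-08) and -0.85 ± 0.21 in DoxyNaB/Doxy (adjusted p = 2.61e-08). CLN3, the membrane protein lost in juvenile neuronal ceroid lipofuscinosis, ran from -0.89 to -0.44 on Ctl (median -0.62), from -1.60 to -1.15 on NaB (median -1.45), from -1.01 to -0.60 on Doxy (median -0.81) and from -1.99 to -1.12 on DoxyNaB (median -1.33). It too was separated in both comparisons, at -0.73 ± 0.11 (adjusted p = 1.33e-06) and -0.61 ± 0.33 (adjusted p = 1.22e-05). With scaling to the median, CD63 and CLN3 were both called lower. PPT1 and CLN3 are both genes of neuronal ceroid lipofuscinosis, as are TPP1 and CTSD, which rose except with scaling to the median in NaB/Ctl.

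In the autophagy group, 4 of 8 genes were called higher in both comparisons (background 21.0% and 18.7%) and the other 4 passed neither test. Scaling to the median left 2 of the 8 called in each. MAP1LC3B, whose product LC3B coats the autophagosome, ran from 1.60 to 1.94 on Ctl (median 1.71), from 3.46 to 3.63 on NaB (median 3.51), from 1.73 to 2.00 on Doxy (median 1.87) and from 3.27 to 3.75 on DoxyNaB (median 3.44). Butyrate arrays stood above the rest without overlap. The change was 3.44-fold in NaB/Ctl (1.78 ± 0.17; adjusted p = 2.43e-13) and 3.03-fold in DoxyNaB/Doxy (1.60 ± 0.18; adjusted p = 9.55e-13). SQSTM1, the cargo receptor p62, ran from 3.19 to 3.74 on Ctl and from 5.04 to 5.73 on NaB, and rose 3.41-fold (1.77 ± 0.31; adjusted p = 7.2e-12) and 3.68-fold (1.88 ± 0.18). WIPI1, which binds the lipid of the forming membrane, rose 2.91-fold and 2.80-fold, and ULK1, the kinase that starts autophagy, rose 2.35-fold and 2.3-fold, with Doxy and DoxyNaB arrays that overlapped.

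The 4 autophagy genes that did not pass were ATG5 and ATG7, which conjugate LC3 to lipid, BECN1, of the lipid kinase complex, and GABARAPL1, an LC3 relative. Together with ARSB, ASAH1, GLA and LAMP1 they make up the 8 of 38 genes past neither butyrate test, with changes between -0.20 and 0.23 in NaB/Ctl and between -0.26 and 0.18 in DoxyNaB/Doxy. For 7 of the 8 the sign differed under at least 1 alternative processing in each comparison. Probes disagreed for ATG5 and ATG7, where the dimmer probe did pass, at 0.31 (adjusted p = 0.0043) and 0.53 (adjusted p = 0.00628) in NaB/Ctl. Of the 11 genes with several probes, none had probes called in opposite directions.

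Doxycycline itself changed few of these genes. In Doxy/Ctl, 0 of 38 genes were called by limma (background 0.0924%), and 5 had an unadjusted p under 0.05 (13.2%, against 13.3% of all genes). At an adjusted p under 0.01 there were 0 as well, where 0.462% of all genes were higher and 0.0924% lower. The methods' t-test called 0. The 38 changes lay between -0.27 and 0.29 with a median of 0.01, against 0.02 over all genes. In DoxyNaB/NaB 0 of 38 were called (background 0.403%), 5 had an unadjusted p under 0.05 (13.2%, against 16.1%), the t-test called 0, and the changes lay between -0.53 and 0.40. The median over the 38 genes was -0.19 in experiment 2 and 0.23 in experiment 3, against a range from -0.01 to 0.06 in the other 4 experiments. The DoxyNaB array of experiment 2 and the NaB array of experiment 3 are those with the highest negative controls, and without both of them limma still called 0 of 38 genes in either doxycycline comparison.

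SMPD1 was the gene with an adjusted p under 0.01 in a doxycycline comparison. It was lower in DoxyNaB than in NaB in 6 of 6 experiments, by 0.53 ± 0.13 on the log2 scale or 1.45-fold (adjusted p = 0.00881; background for lower genes 2.03%), and the 6 DoxyNaB arrays, from -0.34 to -0.02, lay below the 6 NaB arrays, from 0.12 to 0.71 (background 1.41%). Leaving out any 1 experiment took the adjusted p to between 0.0189 and 0.0522 with a change between -0.56 and -0.49, and normexp gave -0.48 (adjusted p = 0.353). Quantile normalization gave -0.60 (adjusted p = 3.29e-05), and with the slide as block the adjusted p was 0.00484. In Doxy/Ctl its change was -0.16 ± 0.26 (adjusted p = 0.636). SQSTM1 was higher in 6 of 6 experiments in both Doxy/Ctl (0.29 ± 0.15; adjusted p = 0.153) and DoxyNaB/NaB (0.40 ± 0.23; adjusted p = 0.0153), neither past 0.01. TFEB was lower with doxycycline in 6 of 6 experiments without butyrate (-0.17 ± 0.06; adjusted p = 0.19) and in 5 of 6 with butyrate (-0.13 ± 0.14; adjusted p = 0.292).

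**Figure D3:**
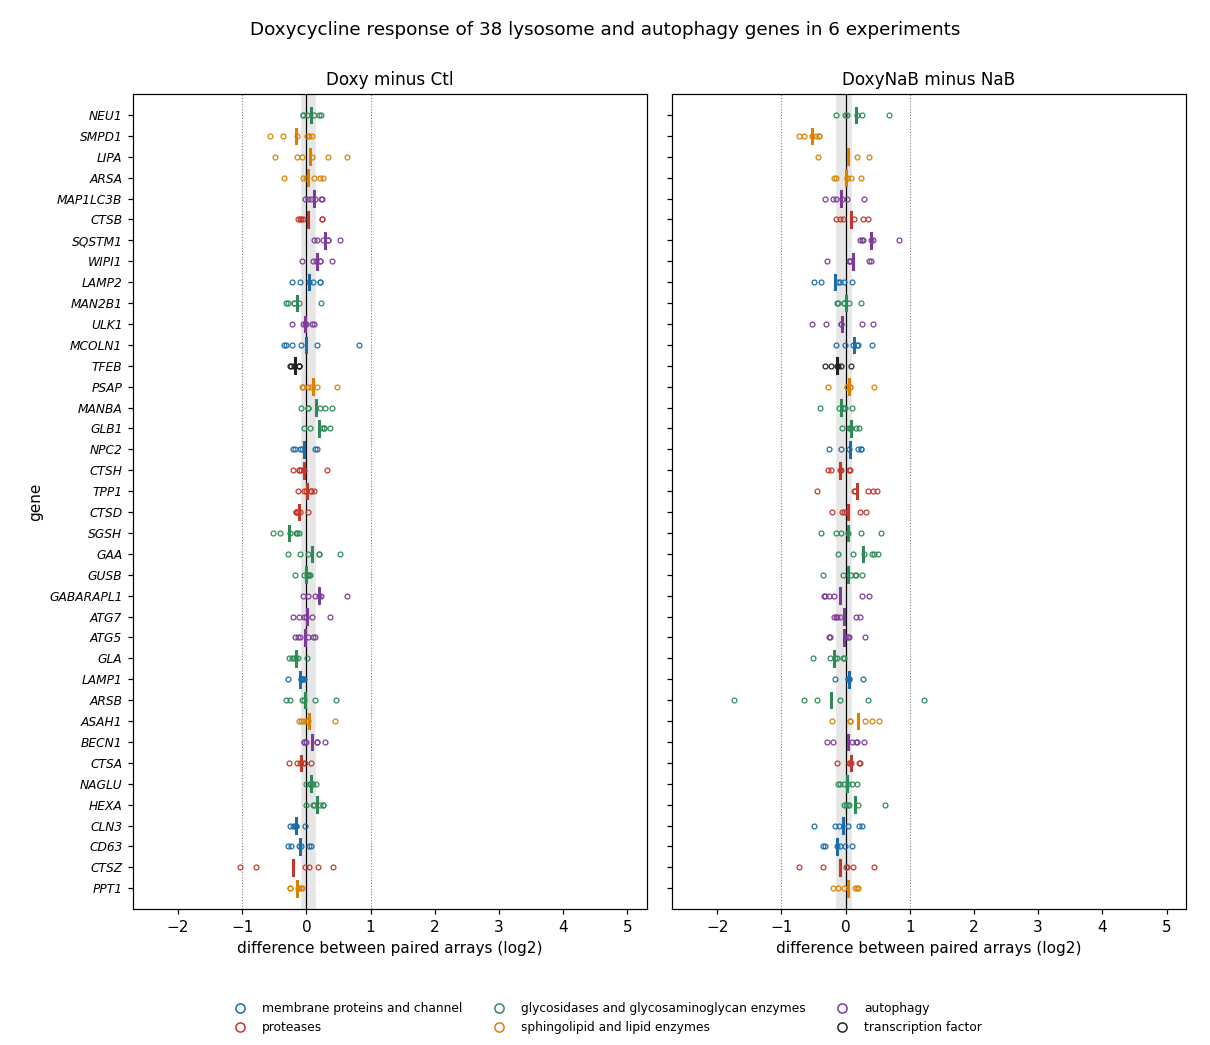
Paired differences (log2) for each of the 38 genes in Doxy minus Ctl (left) and DoxyNaB minus NaB (right), on the same axis and in the same gene order as the butyrate plot. Open circles are the 6 experiments, bars their means, and the grey band spans the middle quartiles of all 15154 genes; the means stay between -0.53 and 0.40, and the 6 experiments of SMPD1 lie between -0.73 and -0.41 in the right panel.

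The butyrate response of none of the 38 genes was shown to differ with doxycycline. The interaction called 0 of 38 at an adjusted p under 0.01 in limma, against 1.36% of all genes, and 1, SMPD1, at an unadjusted p under 0.05 (2.63%, against 12.5%). The methods' t-test on the same difference gave 0 after adjustment and 3 at an unadjusted p under 0.05. Over all 15154 genes that t-test gave 0 after adjustment and 1867 at an unadjusted p under 0.05. SMPD1 had the highest interaction, a butyrate response 0.37 larger on the log2 scale without doxycycline (SE 0.16; adjusted p = 0.349), and SGSH the lowest, at -0.30. For NEU1 it was -0.09 (SE 0.14; adjusted p = 0.866) and for TFEB -0.04 (SE 0.08; adjusted p = 0.896).

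Reading the promoters against these values, 2 of the 9 genes with CACGTG in a window, MCOLN1 and NEU1, were called higher in NaB/Ctl. So were 8 of the 20 genes without it, where 21.0% of all genes were. Median changes were 0.04 and 0.61. LAMP1, with 6 copies in the window printed above, had a change of 0.04, and SMPD1, with no match, one of 3.22. Both were picked for display after their values were seen, and the part of TFEB in these changes was not tested.

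The rest of the pathway was read from 189 further genes in 6 lists, of which 175 were tested. In NaB/Ctl, 52 were called, 29.7% against a background of 32.4%, with 45 higher and 7 lower. The median change was 0.48. At an adjusted p under 0.01 without the fold threshold there were 98 higher (background 40.6%) and 29 lower (background 29.0%). DoxyNaB/Doxy called 45 higher (background 18.7%) and 8 lower (background 12.5%), with a median of 0.48. Over all genes 21.0% were called higher and 11.5% lower in NaB/Ctl. The counts of each list below, other than those with scaling to the median, are to be read against these shares. Scaling to the median turned the NaB/Ctl balance to 18 called higher and 28 lower, with a median of -0.27. Over all 18983 probes, that scaling called 1643 higher and 6129 lower, with a median of -0.58. The list counts with scaling to the median are to be read against these.

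Among other lysosomal hydrolases, 10 of 36 were called higher and 2 lower in NaB/Ctl, or 5 and 9 with scaling to the median. LGMN, the asparaginyl endopeptidase legumain (4.11-fold; adjusted p = 1.53e-13), and the cathepsin CTSL2 (3.96-fold) rose most, and the dipeptidyl peptidase DPP7 (-1.16 on the log2 scale) and SMPDL3A, a relative of SMPD1 (-1.12), were lowest. Of the other membrane and cofactor proteins, 6 of 29 were called higher and 1 lower (2 and 5 with scaling to the median), from GM2A, the activator protein of ganglioside breakdown (4.34-fold), and LAMP3 (3.77-fold) down to the channel MCOLN3 (-0.99, past the p but not the fold) and CLN6 (-1.36).

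The V-ATPase, the proton pump that acidifies the lysosome, had 6 of 22 subunits called higher in NaB/Ctl and, at an adjusted p under 0.01, 13 higher (background 40.6%), or 2 called higher and 1 lower with scaling to the median. ATP6V1D rose 3.50-fold (adjusted p = 1.84e-13). ATP6V1B1, at 3.49 ± 1.45 on the log2 scale, passed the background test in 1 of the 6 untreated samples, and normexp gave 0.73. The lowest subunits, ATP6V1E2 (-0.35) and ATP6V1G1 (-0.14, positive under normexp and quantile normalization), did not pass the test.

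Mannose 6-phosphate sorting had 2 of 18 genes called higher and 1 lower, with a median change of 0.05 that scaling to the median took to -0.70. The receptors SORT1 (3.07-fold) and IGF2R (2.29-fold) rose, and NAGPA, the uncovering enzyme of the sorting tag (-1.46), and the adaptor subunit AP1M2 (-0.79) fell. Other autophagy genes had 15 of 42 called higher and 2 lower (6 and 5 with scaling to the median), with ATG2A, a lipid transfer protein (4.74-fold), and the receptor OPTN (4.07-fold, or a log2 change of 1.03 under normexp against 2.02) at the top and ULK3 (-1.06) and ATG12 (-1.02) at the bottom. Under normexp ULK3 (-0.91), ATG12 (-0.84) and, of the hydrolases, SMPDL3A (-0.80) changed by less than 2-fold.

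The TFEB family and mTORC1 control list had 6 of 28 genes called higher and 1 lower in NaB/Ctl, or 3 and 5 with scaling to the median. SESN3, of the sestrin family that restrains mTORC1 (7.15-fold, but above background in only 4 of 6 untreated samples, with a log2 change of 2.84 that normexp took to 1.11), and DEPTOR, an inhibitor within mTOR complexes (4.97-fold, 2.31 on the log2 scale or 1.58 under normexp), were highest, and AKT1S1, the mTORC1 subunit PRAS40 (-1.89), and LAMTOR4, of the Ragulator scaffold (-0.997), were lowest. MITF, a relative of TFEB, rose 4.33-fold (2.12 on the log2 scale; adjusted p = 8.16e-08), or by 0.98 under normexp, short of 2-fold, and TFE3, another, passed the p alone at 0.57, or -0.18 with scaling to the median. Under doxycycline, DDIT4, an mTORC1 inhibitor, was the 1 gene of the 175 tested that limma called in Doxy/Ctl (1.32 on the log2 scale, adjusted p = 1.16e-07). That is 0.571%, against 0.0924% of all genes. In DoxyNaB/NaB limma called 0 (background 0.403%), and 6 genes passed the p alone, 3 higher and 3 lower. The lower ones were 1.71%, against 2.03% of all genes, and for the higher ones no share over all genes is given. The sulfatase ARSG (0.75, adjusted p = 0.0024) and the sestrin SESN2 (0.67, adjusted p = 0.00458) passed the interaction test in limma. These 2 genes are 1.14% of those tested, near the 1.36% of all genes.

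**Figure D4:**
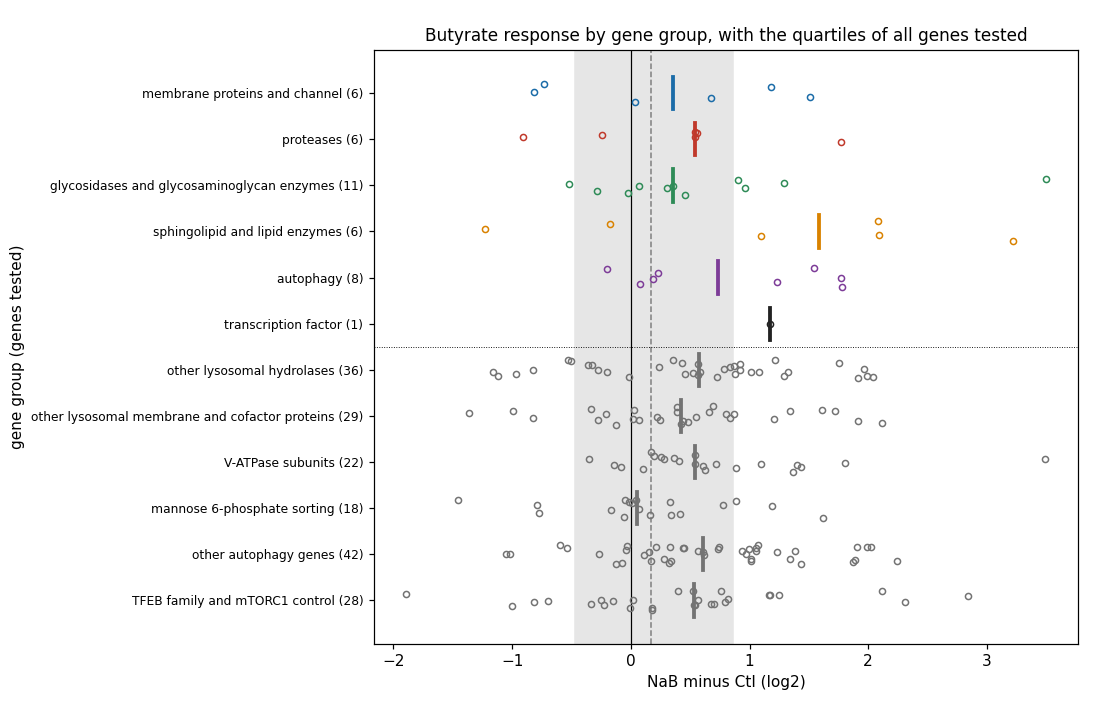
NaB/Ctl change (log2) of every gene tested in the 6 role groups of the 38 genes (coloured) and in the 6 lists of further genes (grey), with the number of genes tested in brackets. Circles are genes, thick bars medians, the dashed line the median of all genes (0.17) and the grey band their middle quartiles; the sphingolipid and lipid enzymes have the highest median among groups of several genes (1.59) and mannose 6-phosphate sorting the lowest (0.05).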

How the data were processed

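The 24 deposited files hold the spot intensity values of Agilent Feature Extraction 9.5.3.1, per the file headers, which had subtracted background and spatial trend within each array but had not scaled arrays to each other. The authors' methods name GeneSpring GX and a paired test. Control and outlier-flagged spots were left out, repeated spots (10 for a replicated probe) were averaged, and levels were set relative to the 75th percentile of each array (380.2 to 1323 in signal units). Precision is limited by signal over background, judged by the scanner software (multiplier 13). Probes entered the tests if any group had all 6 of its arrays well above background.

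The comparisons used limma 3.58.1 under R 4.3.3 (lmFit, then eBayes) over all 24 arrays, with experiment as a block and Benjamini-Hochberg adjustment over all 18983 probes. A gene was represented by its tested probe with the highest mean level. Experiments were taken as pairs because the methods name a paired test. Treatment-centred levels of arrays of the same experiment correlated with a median r of 0.60 (-0.22 to 0.85, over 0.1 in 35 of 36 pairs). For arrays of other experiments and groups the median was -0.30, with 58 of 180 pairs over 0.1 and a highest r of 0.88. Centring by itself makes r between experiments more negative. The pair with the highest r shared a scan date, so these values do not separate experiment from scan date. Experiment 1 was on 2 slides with different scan dates, which separate its butyrate arrays from the others. There the slide and the scan date cannot be told apart from butyrate. Experiments 2 to 4 shared a scan date, as did experiments 5 and 6.

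Values in every group are given for TFEB, for the 6 highest and 6 lowest of the 38 genes in NaB/Ctl and for genes past a doxycycline or interaction test. Of the further lists the 2 highest and 2 lowest are named. The genes, lists and tests were chosen with earlier results of these data known. The 6 promoters shown, SQSTM1 and the other genes named outside these rules were chosen after their values were seen. Coordinates of probes are those of the files (NCBI36), and no exon annotation of that build was used; promoters are RefSeq's on GRCh38.p14. Labels number the samples by experiment, and the paper describes the experiments as biological replicates. The fit was tested on simulated data. Tables and plots came from Python 3.11.15 (pandas 2.3.3, numpy 2.4.6, matplotlib 3.10.9). Alternatives were normexp (offset 50), quantile normalization, a floor of 5 followed by scaling to the median spot, other filters, blocks, thresholds, tests and probe rules, and leaving out arrays or experiments.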

Additional observations from a re-analysis of the deposited data

Results flagged for a closer look

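The 6 paired differences of the genes given in full were searched for a single experiment far from the other 5, in 51 sets, of which chance marks about 1 in 20. HEXA in DoxyNaB/NaB was marked for experiment 2, at 0.61 against -0.03 to 0.20 in the others. NAGLU in NaB/Ctl was marked for experiment 1, at -0.70 against -0.29 to -0.10.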

How the results depend on the processing

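Counts of the 38 genes called in NaB/Ctl lay between 13 and 17, and in DoxyNaB/Doxy between 12 and 16, under every alternative that kept the fold threshold of 2. Without a fold threshold they were 30 and 29, with 1 in DoxyNaB/NaB (SMPD1), and with a fold of 1.5 DoxyNaB/Doxy gave 24. Leaving out each experiment gave 15 to 16 in NaB/Ctl and 14 to 15 in DoxyNaB/Doxy. Without the replicate block the counts stayed at 15 and 15 and at 0 for the other comparisons, and the change of SMPD1 in DoxyNaB/NaB, -0.53, had an adjusted p of 0.0306; dropping the pairing changed no other call of the 38 genes. Experiments 2 to 4 alone called 16 and 14 genes, and experiments 5 and 6 alone 16 and 15. A floor of 5 with scaling to the median spot kept 8 of the 15 calls in each comparison and reversed the sign of CTSD (-0.21), CTSH (-0.19), GAA (-0.40), GUSB (-0.44), NPC2 (-0.0766), SGSH (-0.29) and TPP1 (-0.21) in NaB/Ctl, and of CTSH (-0.0506), GAA (-0.0210) and GUSB (-0.20) in DoxyNaB/Doxy. CTSA in DoxyNaB/Doxy changed sign under quantile normalization (0.0805) and in experiments 5 and 6 alone (0.11), for which the cause was not tested. The share of higher among calls over all probes in NaB/Ctl was 65.3%, and 53.2% with normexp, 43.8% with quantile normalization and 21.1% with scaling to the median. Signal over background limits ARSB, the variant A probe of LAMP2, the second CTSZ probe and ATP6V1B1.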
